A study of Rattus norvegicus with 16 samples.

Results

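The genes described here serve the absorption and first use of dietary sugar and of cobalamin (vitamin B12): the sugar transporters Slc2a5, Slc2a2 and Slc5a1, the fructose kinase Khk, the brush border sugar hydrolases Sis and Treh, and Amn and Cubn, which together form the receptor for cobalamin bound to intrinsic factor. The set of 8 genes was chosen by measured values of these arrays. Amn and Slc2a5 had stood out by their lower level in Pirc rats, over both treatments and within each. The other genes were added for their shared function. The differences between Pirc and wildtype rats are therefore given as a description without a test. The differences between DSS-treated and untreated rats were not themselves used in that choice and are tested. They share arrays with the comparisons that were used, so for Amn and Slc2a5 these tests are not independent of the choice. Of the 8 genes, 7 were matched by a probe of the array, 1 probe each, among 15159 gene symbols measured by 30367 probes. No probe was matched to Sis, which was not analysed here.

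RNA of normal distal colon came from 16 male (ACIxF344)F1 rats aged 97 days, hybridised 1 rat to an array of 1 colour. The rats formed 4 groups of 4: wildtype untreated, wildtype given dextran sodium sulfate (DSS), Pirc/+ untreated and Pirc/+ given DSS. Pirc is a mutant allele of Apc, the gatekeeper gene of colon tumours, carried in heterozygous form in every cell. DSS, a polymer that injures the colonic lining, was added to the drinking water at 4% in 2 courses, on days 40 to 47 and 54 to 61 of age, so that 36 days without DSS preceded sampling. All 4 groups shared the F1 background, and none held adenoma tissue.

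A dietary sugar reaches the enterocyte in steps. Disaccharides are split by enzymes anchored in the brush border, sucrose by Sis and trehalose by Treh. Glucose and galactose then enter with sodium through Slc5a1 (SGLT1), fructose enters through Slc2a5 (GLUT5), and sugars leave towards the blood through Slc2a2 (GLUT2). Inside the cell Khk phosphorylates fructose. Cobalamin follows another route: amnionless, the product of Amn, anchors cubilin (Cubn) in the membrane, and the pair takes up cobalamin with its intrinsic factor by endocytosis. These steps are best known from the small intestine and, for Amn, Cubn and Slc5a1, also from the kidney.

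The 250 bases before the start of transcription are shown for the 3 genes whose levels set the groups apart most, Amn, Slc2a5 and Khk, as RefSeq lists them on the GRCr8 assembly. The windows lie at chr6:136132317-136132566 (plus strand) for Amn, chr5:165865929-165866178 (plus strand) for Slc2a5 and chr6:31175482-31175731 (minus strand) for Khk. They were searched on both strands for the E-box CACGTG, for the HNF1 half-site GTTAAT, for the CDX core TTTAT, for the GATA core AGATAA and for the HNF4 core CAAAGTCCA. Capitals mark the only match.
Amn: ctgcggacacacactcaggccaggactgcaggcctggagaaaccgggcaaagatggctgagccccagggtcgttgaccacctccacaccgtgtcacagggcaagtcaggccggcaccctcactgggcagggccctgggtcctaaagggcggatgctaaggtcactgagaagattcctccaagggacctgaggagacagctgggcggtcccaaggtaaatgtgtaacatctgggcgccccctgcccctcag
Slc2a5: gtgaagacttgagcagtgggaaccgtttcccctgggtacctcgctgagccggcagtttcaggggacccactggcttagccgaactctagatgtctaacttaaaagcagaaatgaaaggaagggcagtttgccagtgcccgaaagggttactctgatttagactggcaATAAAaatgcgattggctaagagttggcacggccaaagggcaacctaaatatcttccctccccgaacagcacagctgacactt
Khk: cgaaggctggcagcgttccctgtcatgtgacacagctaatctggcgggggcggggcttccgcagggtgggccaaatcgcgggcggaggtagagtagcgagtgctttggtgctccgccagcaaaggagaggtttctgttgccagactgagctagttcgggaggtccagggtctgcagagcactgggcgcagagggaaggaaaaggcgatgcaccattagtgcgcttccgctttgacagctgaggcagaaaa
The Slc2a5 window held TTTAT once, on the opposite strand and 83 bases before the start, and 39.3% of 33469 such windows hold that pentamer. No other listed core was found in these 3 windows, which says only that these letters are not in them. Among all windows CACGTG occurred in 5.59%, GTTAAT in 6.45%, AGATAA in 10.3% and CAAAGTCCA in 0.338%. The windows of Slc2a2, Slc5a1 and Cubn were searched as well. Slc5a1 had CACGTG at 200 bases and Cubn had AGATAA at 195 bases before the start.

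No array had a saturated spot, and the share of spots well above background ran from 71.1% to 80.3%. A level below is the log2 of a probe's signal relative to the 75th percentile of its array, a scale on which 1 unit is a 2-fold step and which cannot be used to rank one gene above another. The labelled tissue was checked against its markers: 10 of 12 listed distal colon and colonocyte genes were measured, and all 10 were well above background on all 16 arrays. Of 12 small intestinal enterocyte markers, 8 were well above background on every array as well, while Mttp, Slc10a2 and Gata4 were so in no whole group. DSS-treated wildtype rat 26 had a summed level of squamous markers of 0.334, within the range of untreated wildtype rats, while the others of its group had 2.13, 4.28 and 33.2. Its leukocyte sum of 1.47 and fibroblast and smooth muscle sum of 7.09 lay above those of untreated wildtype rats (at most 0.954 and 5.27). It was singled out by markers that rose after DSS. Results of the named genes that turn on it are therefore given without it only beside those with it.

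Slc2a5, Slc5a1, Khk and Amn were well above background on all 16 arrays. Treh was well above background on 3, 1, 2 and 2 of 4 arrays in untreated wildtype, DSS-treated wildtype, untreated Pirc and DSS-treated Pirc rats, Cubn on 1 array in all, and Slc2a2 on none. These 3 genes were not well above background in any whole group, and no change could be read for them. Their values ran from -7.59 to -6.29 (Treh), from -9.17 to -7.05 (Cubn) and from -9.94 to -7.62 (Slc2a2) on the log2 scale. Amn was thus well above background where the probe of its partner Cubn was not, and Slc2a5 and Khk where that of the exporter Slc2a2 was not.

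**Figure D1:**
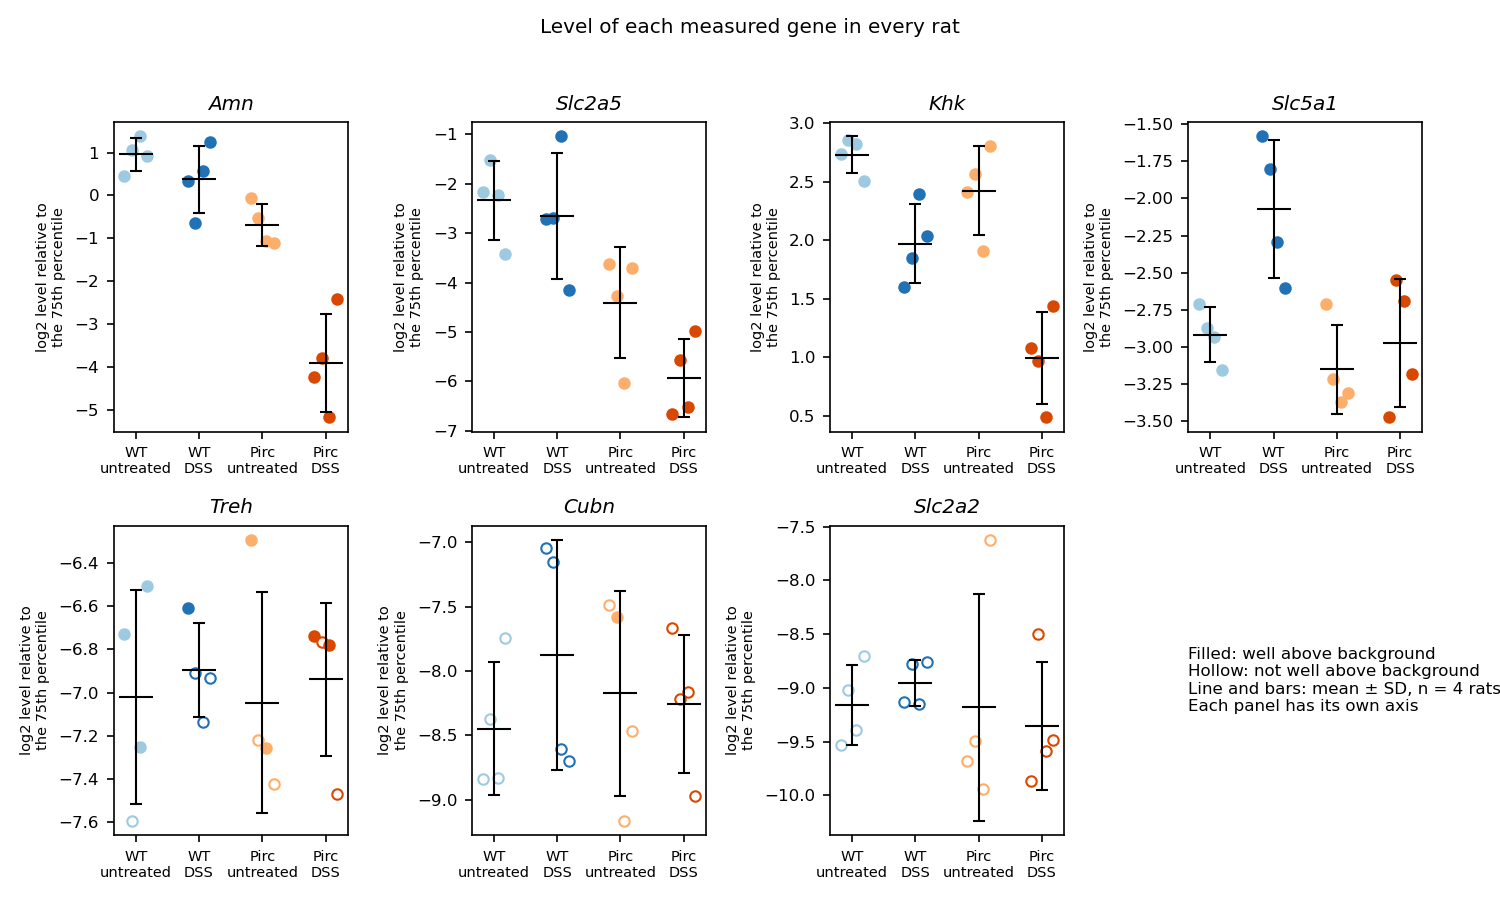
Log2 level of the 7 measured genes (y axis, relative to the 75th percentile of each array, a separate axis for each panel) in every rat of the 4 groups (x axis), with group mean and SD. Amn in DSS-treated Pirc rats lay between -5.17 and -2.42, below all 12 other rats, whereas Slc2a2 was not well above background in any rat.

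Amn had its lowest levels in Pirc rats given DSS, and it fell after DSS in Pirc rats and over both genotypes. Untreated wildtype rats 13, 17, 21 and 25 had log2 levels of 0.46, 1.06, 1.38 and 0.93, and DSS-treated wildtype rats 14, 18, 22 and 26 had 0.33, -0.63, 0.57 and 1.24. Untreated Pirc rats 11, 15, 19 and 23 had -0.07, -0.53, -1.07 and -1.10, and DSS-treated Pirc rats 12, 16, 20 and 24 had -4.23, -3.80, -5.17 and -2.42. The wildtype groups overlapped, all untreated Pirc rats lay below all untreated wildtype rats, and every DSS-treated Pirc rat lay below every other rat. The group means were 0.96 ± 0.38, 0.38 ± 0.78, -0.69 ± 0.49 and -3.90 ± 1.15 in that order (SD, n = 4 each). The spread of the 10 spots that carry the Amn probe was far smaller than that between rats, with an SD on 1 array of 0.05 to 0.24.

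The DSS difference of Amn in Pirc rats was -3.21 (SE 0.49) on the log2 scale, 9.26-fold lower, with an adjusted p of 0.000713 from limma. In wildtype rats it was -0.58 (SE 0.49, adjusted p = 0.650, limma), with an interval of -1.64 to 0.48, and it was -0.24 without DSS-treated rat 18 and -0.87 without rat 26. The difference between these 2 effects was -2.63 (95% interval -4.13 to -1.14), yet its adjusted p over all probes was 0.222 by limma, so a larger fall in Pirc than in wildtype rats did not pass. Over both genotypes Amn fell by 1.90 on the log2 scale (SE 0.35, adjusted p = 0.0017, limma). Amn was chosen partly for its low level in DSS-treated Pirc rats, so tests that use these rats are not independent of that choice. In a bulk sample fewer cells that express a gene and less RNA per cell cannot be told apart, and this holds for every change below.

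Khk, which commits fructose to metabolism inside the cell, was the other member that fell after DSS. Its log2 levels were 2.73, 2.86, 2.82 and 2.50 in untreated wildtype rats and 1.60, 1.85, 2.40 and 2.03 in DSS-treated wildtype rats. They were 2.41, 2.57, 1.91 and 2.80 in untreated Pirc rats and 1.08, 0.97, 0.49 and 1.44 in DSS-treated Pirc rats. DSS-treated rats lay below untreated rats of the same genotype without overlap in both genotypes, and the DSS-treated Pirc rats were again the lowest of all. The fall was 2.69-fold in Pirc rats (log2 difference -1.43, SE 0.23, adjusted p = 0.000901, limma) and 2.14-fold over both genotypes (-1.09, SE 0.16, adjusted p = 0.000302, limma). In wildtype rats the difference of -0.76 (SE 0.23) had an adjusted p of 0.0838 in limma, which became 0.0483 without DSS-treated wildtype rat 22. The 2 DSS effects differed by -0.67 (95% interval -1.36 to 0.02, adjusted p = 0.486, limma).

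Slc2a5, the fructose transporter of the brush border, did not pass any DSS test. Its log2 levels were -2.17, -1.51, -2.22 and -3.43 in untreated wildtype rats, and -2.72, -2.70, -1.03 and -4.16 in DSS-treated wildtype rats. Untreated Pirc rats had -3.61, -4.27, -6.04 and -3.71, and DSS-treated Pirc rats had -6.66, -5.58, -6.52 and -4.99. Untreated and DSS-treated rats overlapped within both genotypes, and untreated Pirc rat 19 was as low as the DSS-treated Pirc rats. The DSS difference was -1.53 in Pirc rats (SE 0.66, 95% interval -2.94 to -0.12, adjusted p = 0.147, limma) and -0.32 in wildtype rats (SE 0.66, interval -1.73 to 1.10, adjusted p = 0.855, limma). With normexp, another background correction, run on median signals with an offset of 50 added, the difference in Pirc rats was -0.51. Such an offset by itself shrinks log2 differences of dim probes, here and wherever normexp is named below. Leaving out DSS-treated wildtype rat 26 turned the wildtype difference to 0.18. The SD between rats of a group was 0.80 to 1.28, so these intervals are wide.

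Slc5a1, the sodium-coupled glucose and galactose transporter, was the one detected member whose mean was higher after DSS. Its log2 levels were -2.71, -2.87, -2.93 and -3.15 in untreated and -1.58, -1.80, -2.29 and -2.60 in DSS-treated wildtype rats, without overlap. In Pirc rats they were -2.71, -3.22, -3.37 and -3.31 untreated and -3.48, -2.55, -2.69 and -3.18 after DSS, and the groups overlapped. The DSS difference was 0.85 in wildtype rats (SE 0.25, 95% interval 0.32 to 1.38, adjusted p = 0.0747, limma) and 0.18 in Pirc rats (SE 0.25, adjusted p = 0.740, limma), and these did not differ past the threshold (adjusted p = 0.520, limma). Over both genotypes it was 0.51 (SE 0.18, adjusted p = 0.0581, limma). Without DSS-treated wildtype rat 26 the wildtype value rose to 1.03 with an adjusted p of 0.0257 by limma.

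By count, 2 of 7 measured members (Amn and Khk) were called lower after DSS over both genotypes, where a call needs a 2-fold change besides an adjusted p of at most 0.05. Of all probes 5.99% were called in that comparison, and 0.988% were called lower. The same 2 were called lower in Pirc rats, where 7.46% of all probes were called and 1.95% were called lower. Amn was chosen partly for its low level in DSS-treated Pirc rats, so its calls in both comparisons are not independent of that choice. No member was called in wildtype rats, where 2.77% of probes were called and 0.402% were called lower. In the wildtype comparison no member passed by adjusted p alone. The share of all probes that passed so is not given here. Counts of genes passing by adjusted p alone, here and below, are therefore not read as a result. For the difference between the DSS effects no member was called, as against 0.0428% of probes called and 0% called lower. Groups did not overlap for Amn and Khk in the DSS comparison of Pirc rats and for Khk and Slc5a1 in that of wildtype rats, as was so for 16.9% and 12.4% of all probes. The calls of Amn and Khk were kept without any single rat, with adjusted p in Pirc rats of at most 0.00352 and 0.00441 by limma.

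The arrays lay on 2 slides, each with 2 rats of every group. Within slide 1 and slide 2 the DSS difference in Pirc rats was -3.71 and -2.71 for Amn and -1.47 and -1.39 for Khk. In wildtype rats it was -1.07 and -0.45 for Khk, and 1.10 and 0.60 for Slc5a1. With slide as a block Slc5a1 passed in wildtype rats (adjusted p = 0.0472, limma). On both slides the 4 groups sat in separate columns of array positions, and an effect of the column cannot be told apart from one of the group.

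Markers of other cell types moved with DSS beside these genes. Of 10 leukocyte markers, 8 were called higher in Pirc rats and 6 in wildtype rats, and the summed level of the list was 1.20 to 1.97 in untreated and 9.62 to 38.4 in DSS-treated Pirc rats. In wildtype rats it was 0.531 to 0.954 untreated and 1.47 to 4.67 after DSS. Both counts include Cd2, which was well above background in no whole group. The leukocyte sum is carried mostly by S100a8 and S100a9. Their mean log2 levels were -1.68 and -0.26 in untreated Pirc rats and 2.91 and 3.70 in DSS-treated ones. Of all probes 7.46% in Pirc and 2.77% in wildtype rats were called in either direction. Of 7 measured squamous and urothelial markers, 7 were called higher in Pirc rats and 2 in wildtype rats, with sums of 0.295 to 0.454 and 12.6 to 67.2 in untreated and DSS-treated Pirc rats, and 0.289 to 0.403 and 0.334 to 33.2 in wildtype rats. Of 10 fibroblast and smooth muscle markers, 5 were called higher and 1 lower in Pirc rats and 4 higher in wildtype rats. The part of these changes in the falls of Amn and Khk was not tested.

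The 10 epithelial markers gave no call in either genotype, although Epcam passed downward by adjusted p alone in Pirc rats (-0.42, adjusted p = 0.0215, limma), and their summed level was 404 to 554 in untreated and 439 to 509 in DSS-treated Pirc rats. Scaled to the mean of these epithelial markers, a choice made after the data had been seen, the DSS difference in Pirc rats was -3.16 for Amn and -1.38 for Khk, against -3.21 and -1.43 on the usual scale. The same scaling brought Khk past the threshold in wildtype rats (-0.92, adjusted p = 0.0295, limma). Of 12 small intestinal enterocyte markers, 3 were called lower in Pirc rats and 2 in wildtype rats, and the list's median difference was -0.04 and 0.38. Both counts include Mttp, which was well above background in no whole group, so that its change could not be read. The summed level of this list was 35.5 to 52.4 in untreated Pirc rats and 23.8 to 40.3 in those given DSS, whereas wildtype rats had 48.7 to 65.7 untreated and 62.1 to 87.4 after DSS. That sum is carried mostly by Cyp3a9, whose mean log2 level was 5.30 and 4.43 in untreated and DSS-treated Pirc rats. Of 10 distal colon and colonocyte markers, 1 was called lower in Pirc rats and 3 passed downward by adjusted p alone, with a median of -0.50, and none passed in wildtype rats (median -0.14).

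**Figure D2:**
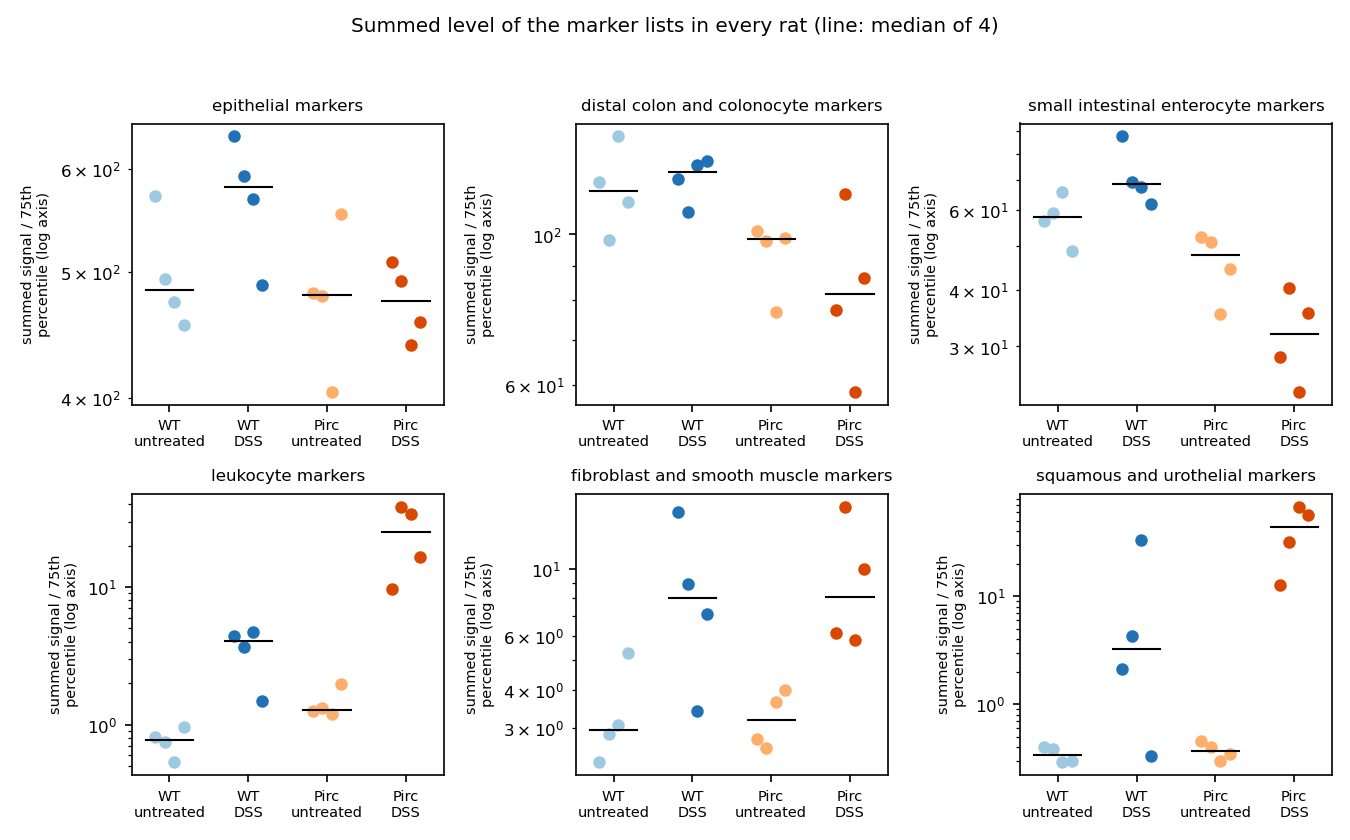
Summed signal of 6 marker lists relative to the 75th percentile (y axis, log scale) in every rat of the 4 groups, with the median of each group as a line. Leukocyte sums were 9.62 to 38.4 in DSS-treated Pirc rats against 1.20 to 1.97 in untreated ones, while epithelial sums stayed between 404 and 636 in all rats. The leukocyte sum is carried mostly by S100a8 and S100a9.

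Pirc rats had lower levels of Amn and Slc2a5 than wildtype rats, the pattern for which the set was named. Over both treatments the difference was -2.96 (SE 0.35) for Amn and -2.68 (SE 0.47) for Slc2a5 on the log2 scale, in a comparison that called 0.780% of all probes lower. In untreated rats it was -1.65 and -2.08, with no overlap for either gene, as for 8.72% of all probes, and 0% of probes were called lower. In DSS-treated rats it was -4.28 and -3.29. Khk was close between the genotypes without DSS (-0.31) and lower in Pirc rats after it (-0.98), and Slc5a1 differed by -0.24 and -0.91. After DSS the genotypes did not overlap for Amn, Slc2a5 and Khk, as for 18.8% of all probes, where 2.37% of probes were called lower. In the same comparison 3 of 7 squamous and 2 of 10 leukocyte markers were called higher, and 3 of 12 small intestinal and 2 of 10 distal colon markers were called lower. The 2 leukocyte markers were S100a8 and S100a9, and the median of that list was 0.34, against -0.11 for all probes. The share of all probes called higher is not given here, so the counts called higher are not read as a result. Of the 10 epithelial markers 4 passed downward by adjusted p alone, with a list median of -0.41. The part of these markers in the differences was not tested.

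The order of the group means was the same for Amn and Slc2a5: untreated wildtype, DSS-treated wildtype, untreated Pirc and DSS-treated Pirc, from high to low. For Slc2a5 each group overlapped with its neighbour in this order. For Amn the first 3 groups overlapped with their neighbours and DSS-treated Pirc rats stood apart. The Slc2a5 signal was dim in Pirc rats, and with normexp its Pirc difference was -1.69 over both treatments and -1.87 in DSS-treated rats.

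Genes whose level followed Amn most closely over the 16 arrays, among 11475 genes searched, were Thra (Pearson r = 0.98), a thyroid hormone receptor, Nap1l3 (0.98) and Pbxip1 (0.97). Within groups, on deviations from the group means, the correlations were 0.87, 0.93 and 0.81. Closest to Slc2a5 were Gde1 (0.94), a glycerophosphodiester phosphodiesterase, Bicdl2 (0.94) and the chemokine Cx3cl1 (0.93), with within-group values of 0.79, 0.86 and 0.83. The points share arrays and the same 4 group means, and these correlations are a description.

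The wider pathways were read from 4 lists with 72 genes, of which 64 were measured and 57 were well above background in a whole group. Over both genotypes 3 of the 64 genes were called higher and 6 lower after DSS, so 9.38% were called lower against 0.988% of all probes. In Pirc rats the counts were again 3 higher and 6 lower (9.38% against 1.95% of all probes called lower), and in wildtype rats 2 higher and 3 lower (4.69% against 0.402%). The genes called higher were 4.69%, 4.69% and 3.1% of the 64 and are not read as a result about the lists. Of all probes 5.99%, 7.46% and 2.77% were called in either direction, most of them higher. The shares of the lists and of all probes have unlike bases. All 64 genes are named, and most were well above background in a whole group. Of the 30367 probes 18006 were matched to a symbol, and dim ones were kept. The size of the contrast between these shares is therefore not read. The median log2 difference of the 64 genes was -0.13, -0.22 and 0.02 in these 3 comparisons, against 0.06, 0.04 and 0.09 for all probes. No gene of the lists was called for the difference between the DSS effects.

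Among 18 measured genes of fructose and galactose metabolism, 2 were called lower over both genotypes and none was called higher. Fbp1, which encodes fructose-1,6-bisphosphatase, fell in both genotypes, by 1.64 in Pirc rats (adjusted p = 0.000533, limma) and by 1.46 in wildtype rats (adjusted p = 0.0053, limma). Galk1, the galactose kinase, rose by 1.11 in Pirc rats (adjusted p = 0.0121, limma). Of the list, 3 genes passed by adjusted p upward and 3 downward over both genotypes, and its median was -0.11. As for the other lists, such counts have no share of all probes beside them.

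Of 18 measured brush border genes 4 were called lower and 2 higher over both genotypes, and the 4 that fell were peptidases. Anpep, aminopeptidase N, fell by 1.88 in Pirc and by 1.67 in wildtype rats (adjusted p = 0.0014 and 0.0113, limma). Dpp4, dipeptidyl peptidase 4, fell by 2.26 in Pirc rats (adjusted p = 0.000686, limma), and its log2 level there went from a range of 1.63 to 2.28 down to -1.12 to 0.35. In wildtype rats its difference of -1.30 was not called (adjusted p = 0.0513, limma). Without DSS-treated wildtype rat 26 it was -1.55 and called (adjusted p = 0.0188, limma). Enpep, glutamyl aminopeptidase, fell by 2.74 in wildtype rats (adjusted p = 0.0327, limma) and by 2.08 over both genotypes (adjusted p = 0.0062, limma).

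Naaladl1, a further peptidase, fell by 1.09 over both genotypes (adjusted p = 0.000293, limma) and by 1.71 in Pirc rats (adjusted p = 0.000277, limma). With normexp the calls over both genotypes ended for Naaladl1 (-0.97) and Enpep (-0.87), both short of a 2-fold change, and Enpep was no longer called in wildtype rats (-1.26, adjusted p = 0.0945, limma). Mep1a, the alpha subunit of meprin A, fell by 1.45 in Pirc rats (adjusted p = 0.00106, limma), where its untreated and treated ranges were 1.50 to 2.42 and -0.01 to 1.20. In wildtype rats its ranges were 2.20 to 2.76 untreated and 2.47 to 2.71 after DSS. The difference between its DSS effects was -1.54 (95% interval -2.26 to -0.83), with an adjusted p of 0.119 in limma.

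Ggt1, gamma-glutamyltransferase 1, rose in both genotypes and had the largest DSS difference of the 64 genes in Pirc rats. In Pirc rats its log2 level ran from -6.89 to -5.61 untreated, where 3 of 4 arrays were well above background, and from -1.69 to 1.37 after DSS, a rise of 6.67 (adjusted p = 6.06e-05, limma). In wildtype rats it was not well above background on any untreated array and ran from -6.14 to -2.92 after DSS, at least 6.52-fold higher. That bound sets the mean of the treated rats against the lowest signal that was well above background on each untreated array, or the probe's own signal where that was higher. The bound itself was not tested. The measured wildtype difference of 3.16 (adjusted p = 0.0173, limma) rests on untreated values not well above background. With a common signal floor for all arrays Ggt1 was not called in wildtype rats. The other brush border gene called higher, Slc6a19, a neutral amino acid transporter named here to complete the count, was well above background in no whole group. With the normexp background correction the rise of Ggt1 was 4.59 in Pirc rats (adjusted p = 1.1e-05, limma), and in wildtype rats it was no longer called (1.06, adjusted p = 0.303, limma). Since the wildtype rise can only be bounded, its size cannot be set against that in Pirc rats.

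Among the 12 measured genes of cobalamin uptake and use, Dab2 was the only one called after DSS. Dab2, an endocytic adaptor that binds the tails of several uptake receptors, rose by 2.22 in Pirc rats (adjusted p = 0.00198, limma) and by 2.45 in wildtype rats (adjusted p = 0.00496, limma). Untreated wildtype rats were well above background on 2 of 4 arrays. With normexp the rise was 1.11 in Pirc rats and 0.85 in wildtype rats (adjusted p = 0.00389 and 0.0783, limma), which ends the wildtype call, and the value of 0.98 over both genotypes was no longer called. Its second probe, never well above background, was called over both genotypes but in neither genotype alone. By adjusted p alone 3 genes of this list passed downward over both genotypes, and the list's median was -0.11. None of this list was called lower in any of the 3 DSS comparisons.

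Of 16 measured sugar transporters other than the members, Slc2a10 was the only one called. It fell by 1.01 in Pirc rats (adjusted p = 0.00531, limma), just past the 2-fold limit, and a second probe gave -0.91 without a call. With normexp the difference was -0.55 and the call ended. Over both genotypes 1 transporter passed by adjusted p upward and 3 downward, and the list's median was -0.14.

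**Figure D3:**
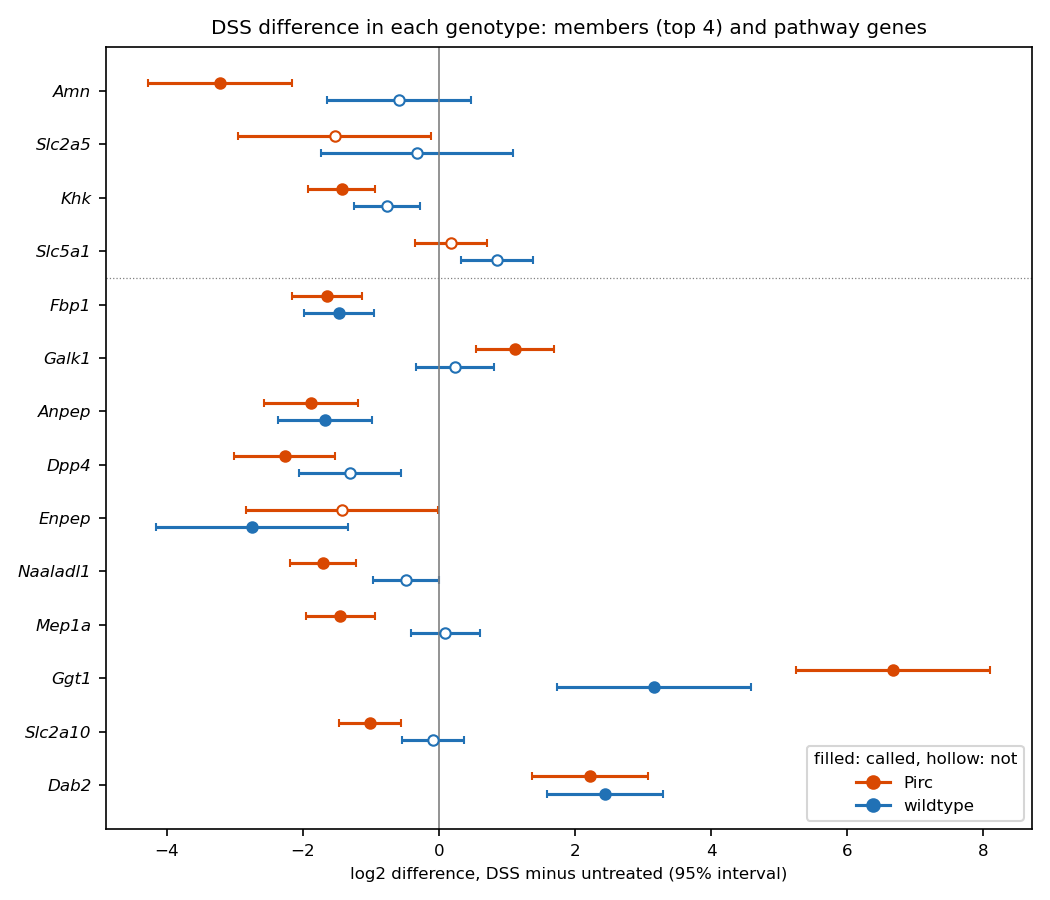
DSS difference (x axis, log2 of treated minus untreated, with 95% interval) of the 4 members well above background (above the dotted line) and of the named pathway genes, in Pirc and wildtype rats, filled where called. Amn was at -3.21 in Pirc and -0.58 in wildtype rats, while Fbp1 and Anpep were called lower in both, and the wildtype point of Ggt1 rests on untreated arrays not well above background.

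**Figure D4:**
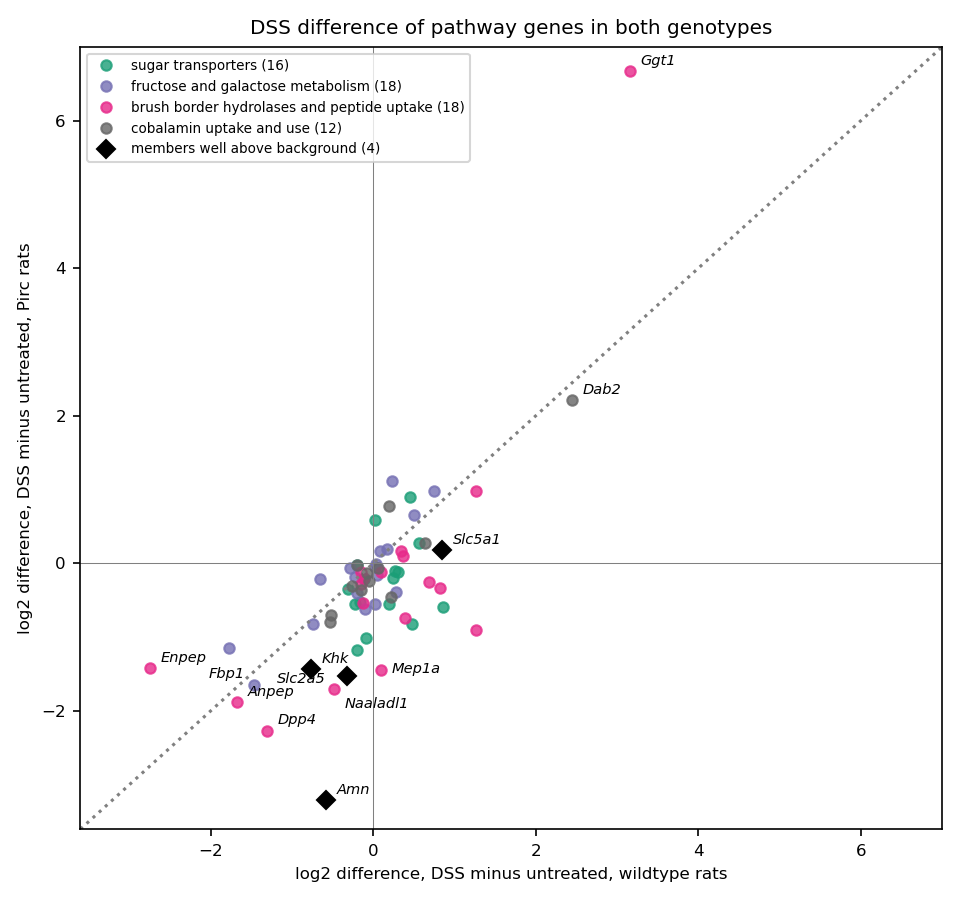
DSS difference in wildtype rats (x axis) against that in Pirc rats (y axis), both as log2 of treated minus untreated, for 64 pathway genes coloured by list and the 4 detected members as diamonds, with the line of equal change dotted. Amn lay at -0.58 and -3.21, and Ggt1 lay at the top, with a measured wildtype value that rests on untreated arrays not well above background.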

How the data were processed

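The authors deposited Agilent Feature Extraction (10.7.3.1) output, in which a spot's processed intensity is linear, has its background subtracted and has not been normalized between arrays. The submitters' processing notes name Partek, with no version given in the sources used here. Here each intensity was divided by the 75th percentile of the array's 58717 non-control spots (875 to 2194 in signal), taken as log2 and averaged over unflagged spots of a probe. Accessions were matched to a RefSeq table (GRCr8), naming 18006 of 30367 probes, and a gene with several probes was represented by the brightest. A probe counted as well above background on an array where at least 50% of its spots were. limma 3.58.1 in R 4.3.3 fitted 1 mean per group over 16 arrays, with Benjamini-Hochberg adjustment over all probes and 7 contrasts, 4 of them tested. The members, lists and tests were chosen with earlier results of these data known. Named pathway genes were all those called in a comparison and well above background in a whole group, up to 8 per direction, apart from 1 gene that is not reported here. The labels give each array its own rat, and the number of arrays limits the precision. No 2 arrays were identical. The script was tested on simulated data. Alternatives covered background correction, normalization, dim probes, a signal floor, outlier flags, probe averaging, slide and row as blocks, the groups fitted, moderation of the variance, the 2-fold minimum and leaving out each rat. The normexp background correction used median signals and an offset of 50, so its smaller values for dim probes are not the result of background correction alone.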

Additional observations from a re-analysis of the deposited data

Results flagged for a closer look

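One value lay far from the rest of its group. The Treh level of DSS-treated Pirc rat 24 was -7.47 on the log2 scale, while the other 3 rats of the group lay between -6.78 and -6.74, and it was not well above background. Of 28 groups of 4 values examined, about 1.4 would be set apart so by chance.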

How the results depend on the processing

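Amn and Khk were the 2 members called lower over both genotypes and in Pirc rats under every alternative and without any single rat. The calls of Amn are not independent of its choice as a member. Of the pathway genes, 9 were called over both genotypes, against 5 with normexp background correction (Enpep, Naaladl1 and Dab2 among those lost) and 21 without the 2-fold minimum. In Pirc rats 9 were called, against 20 without that minimum. In wildtype rats 5 were called, against 2 with normexp (Enpep, Ggt1 and Dab2 lost) and 3 with a common signal floor (Enpep and Ggt1 lost). Leaving out 1 rat gave 3 to 7, with 3 without untreated rat 21 or without DSS-treated rat 14 or 18. For the difference between the DSS effects 1 pathway gene was called with normexp against 0, one whose wildtype value rests on untreated arrays not well above background. Members called in wildtype rats numbered 0 to 1 without 1 rat, the 1 being Slc5a1 without rat 26, which also reversed Slc2a5 there to 0.18, in a range of -0.86 to 0.18 without 1 rat. Slc5a1 over both genotypes (0.0581) passed with dim probes left out (0.0379), the slide as a block (0.0367) or a gene's probes averaged (0.0482), and without untreated Pirc rat 11 (0.0355), DSS-treated Pirc rat 12 (0.0281) or DSS-treated wildtype rat 26 (0.0215), all adjusted p from limma. With normexp the Pirc difference after DSS was -1.87 for Slc2a5 and -3.48 for Amn, and the median of all probes over both treatments was -0.18. The cause was not tested. No paired analysis was possible because the groups share no rat numbers. Dim signal limits Treh, Cubn and Slc2a2, for which no change could be read.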
